A study of Homo sapiens with 16 samples.

Results

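Oxidative phosphorylation is carried out by 5 multi-subunit complexes of the inner mitochondrial membrane. The transcripts described here are those of its nuclear-encoded subunit genes in SK-N-BE(2)C, a human neuroblastoma cell line, after treatment with palbociclib (PB), retinoic acid (RA) or both. They were matched by gene symbol alone, and no measured value was part of the rule. Earlier results of these data were known when the set was chosen. The symbols taken were those of the NDUFA, NDUFB, NDUFC, NDUFS and NDUFV families, NDUFAB1, SDHA to SDHD and the UQCR genes. The ATP5F1, ATP5M and ATP5P genes were also taken, and COX4 to COX8 symbols with at most a letter and a digit added. That form matched no COX4 gene, so complex IV is counted here without one. The choice matched 104 of the 27037 rows of the count table. Of these rows, 80 were subunit genes, with 38 in complex I, 4 in complex II, 9 in complex III, 11 in complex IV and 18 in complex V. Complexes were assigned by symbol alone. NDUFA4 is therefore counted under complex I for its name, here and below, and its place in that complex was not checked. The remaining 24 rows were pseudogenes, 3 of complex III and 21 of complex V genes. Symbols of the mitochondrially encoded subunits matched 0 rows, and these transcripts are not analysed here.

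SK-N-BE(2)C is a MYCN-amplified line with loss of part of chromosome 1p and an adrenergic (noradrenergic neuron-like) identity. Cells received DMSO as the vehicle, 1 µM PB, 10 µM RA or both drugs at these doses (PB+RA) for 5 days, with 4 replicates per group and 16 polyA-selected RNA sequencing libraries in all. PB inhibits the cyclin-dependent kinases CDK4 and CDK6, and RA is a differentiating agent used in maintenance therapy. Replicates were different passages of the one line, plated as independent experiments, so the spread measured here is that between passages of a single line.

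Complex I (NADH dehydrogenase) and complex II (succinate dehydrogenase) pass electrons from NADH and succinate to ubiquinone, complex III passes them on to cytochrome c, and complex IV (cytochrome c oxidase) delivers them to oxygen. Complexes I, III and IV pump protons, and complex V (ATP synthase) makes ATP as the protons flow back. Complex II is encoded by nuclear genes only, and also works as an enzyme of the tricarboxylic acid (TCA) cycle, whereas the other complexes combine nuclear subunits with mitochondrially encoded ones. Core subunits carry the cofactors or the catalytic sites, and accessory (supernumerary) subunits assemble and stabilise the complex around them. Isoform genes such as ATP5MC1, ATP5MC2 and ATP5MC3 encode the same subunit c of the rotor and differ in the import sequence that is removed.

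Library totals ran from 19515779 to 31620821 counts. Levels are given as CPM (counts per 1000000 counts of the library), are not corrected for gene length, and are compared between groups for a gene and not between genes. Among the subunit genes, 77 passed the filter on low counts, namely 38, 4, 9, 9 and 17 of complexes I to V. The other 3 were ATP5MGL, COX6B2 and COX8C, which had 6, 18 and 1 counts summed over the 16 libraries. Of the pseudogenes, UQCRFS1P1 and ATP5F1EP2 passed. In the GENCODE annotation of GRCh37, 49 subunit genes had a pseudogene model elsewhere, 26 shared exon bases with another model on their strand, and 24 overlapped a row on the opposite strand, which in 6 cases had the higher mean level. Reads of such genes can be split or merged by the counting. Counts below are of the 77 subunit genes. They come from a fit without a block for replicate number, unless a block is named. A gene is said to have risen or fallen when its adjusted p in edgeR's quasi-likelihood test was below 0.05, with Benjamini-Hochberg adjustment over all 15415 genes tested, and to have passed the fold minimum when its log2 fold change was also beyond 0.5 in either direction. The labelled identity was checked against marker genes. All 12 adrenergic markers were in the table, with a summed level of 8138 to 8744 CPM in DMSO, 7223 to 9019 in RA, 13082 to 15236 in PB and 10486 to 15494 in PB+RA. Of 16 mesenchymal markers, 15 were in the table at a summed 1210 to 1463 CPM in DMSO, 1989 to 2415 in RA, 1045 to 1218 in PB and 1270 to 1690 in PB+RA, with TWIST2 at 0 CPM in DMSO. Of the 12 mesenchymal markers that passed the filter, 6 rose with RA and 0 fell (18.8% of all genes rose), and 1 rose and 5 fell with PB. Among the 12 adrenergic markers, PB raised 5 (41.7%) and lowered 1 (8.33%), whereas RA raised 3 and lowered 3 (25% each). PB+RA raised 6 (50%) and lowered 2 (16.7%) of them. Across all genes, PB raised 28.4% and lowered 25.2%, RA 18.8% and 16.4%, PB+RA 34.7% and 31.4%. The marker sets are small, and their shares were not tested against these. Of 9 Schwann cell markers, 6 were in the table at 18.5 to 45.8 CPM in DMSO, 23.5 to 52.3 in RA, 30.1 to 54.7 in PB and 31.2 to 39.5 in PB+RA, and SOX10 was at 0 CPM in DMSO. The mesenchymal sum was higher with RA and the adrenergic sum with PB or PB+RA, and their part in the results below was not tested. In such bulk libraries, fewer cells of a type and less RNA per cell cannot be told apart.

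The 77 subunit genes together took 1.26%, 1.25%, 1.26% and 1.19% of all counts in the DMSO libraries, a mean of 1.24 ± 0.0342% (SD, n = 4). The RA libraries held 1.10%, 1.11%, 1.00% and 1.04%, a mean of 1.06 ± 0.0479%. All 4 were below the lowest DMSO library. The share was 1.28%, 1.34%, 1.16% and 1.20% in PB, a mean of 1.25 ± 0.0796%, and its range contained that of DMSO. In PB+RA it was 1.15%, 1.20%, 1.03% and 1.02%, a mean of 1.10 ± 0.0905%, which overlapped the low end of DMSO.

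**Figure D1:**
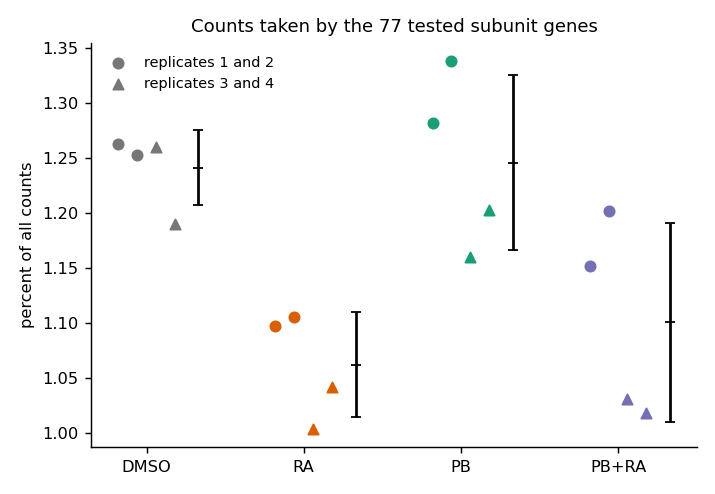
Share of all counts taken by the 77 tested subunit genes in each library, in percent of the library's total counts, by treatment group, with the mean and SD over 4 replicates. Circles are replicates 1 and 2 and triangles are replicates 3 and 4. The RA libraries lay at 1.00% to 1.11%, below all DMSO libraries (1.19% to 1.26%), whereas PB spread from 1.16% to 1.34%.

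With RA alone, subunit genes of all 5 complexes fell together and by small amounts. Of the 77 genes, 54 fell and 0 rose, and the median log2 fold change was −0.25 with 75 genes below zero. Over all 15415 genes, 16.4% fell, 18.8% rose and the median was 0.01. No subunit gene passed the fold minimum in either direction, which 2.54% of all genes did downward and 10.8% upward. Without DMSO replicate 1, DMSO replicate 4 or RA replicate 1, 1 gene did. With the GC and length correction, with or without the block, 8 fell past it. That correction also moved the median of all genes from 0.01 to −0.11. The share of all genes past the fold minimum under the correction is not given here. In replicates 3 and 4 alone 5 subunit genes fell past the minimum, as did 689 of all 15414 genes. Among the more abundant genes (mean over the 16 libraries of 10 CPM or more), 54 of 75 subunit genes (72.0%) fell, against 22.8% of all such genes. In 60 of the 77 genes every RA library was below every DMSO library, a pattern that 17.9% of all tested genes showed. The 2 genes above zero were NDUFC2, at 0.08, and COX7B, at 0.00 (adjusted p = 0.97), and neither of these passed the test.

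By complex, RA lowered 25 of 38 genes of complex I, 4 of 4 of complex II, 4 of 9 of complex III, 6 of 9 of complex IV and 15 of 17 of complex V. The medians were −0.24, −0.39, −0.22, −0.21 and −0.25. Complex II had the lowest median, over its 4 genes.

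**Figure D2:**
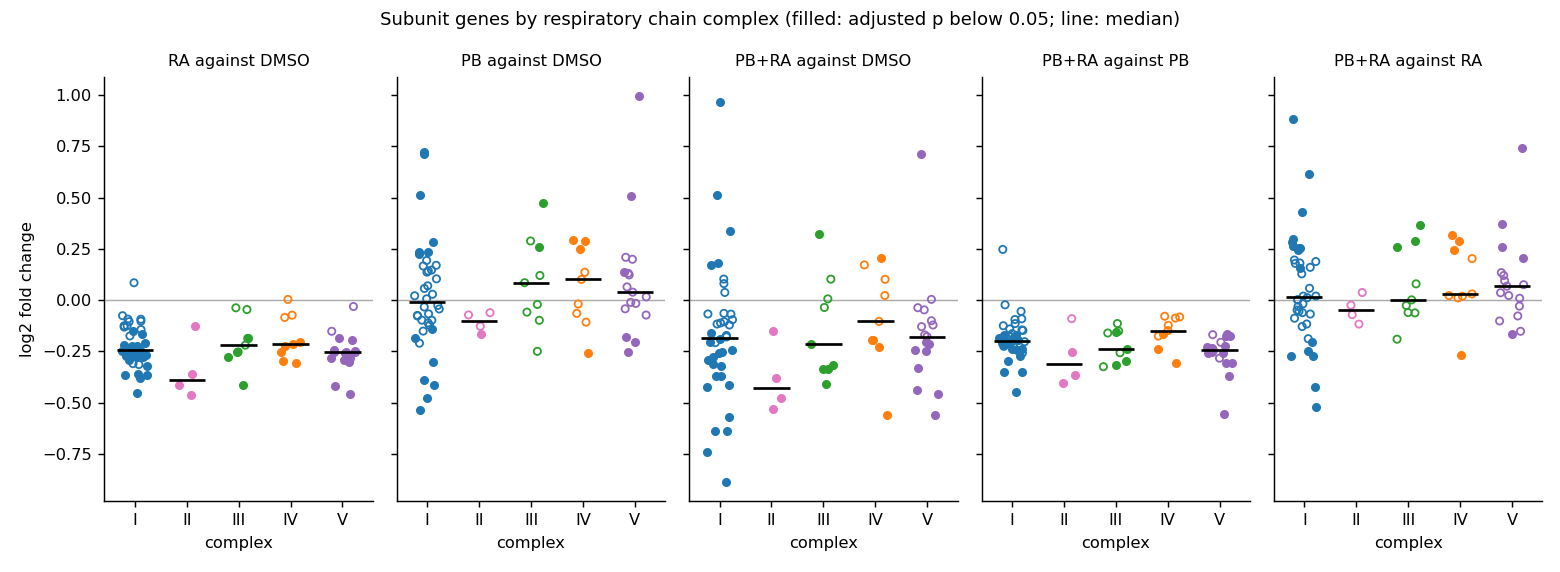
Log2 fold change of each tested subunit gene by complex, for each comparison, with filled points for genes at an adjusted p below 0.05 and a line for the median of each complex. In RA against DMSO the medians of the 5 complexes lay between −0.39 and −0.21 and 75 of 77 genes were below zero, whereas in PB against DMSO the genes spread to both sides of zero.

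The promoters of some of the genes the results turn on are shown here, because subunit genes scattered over the genome are known to share sites for NRF1, ETS-family factors, YY1 and CREB-family factors. The lines give the 150 bases before the RefSeq transcription start on GRCh38.p14, 5′ to 3′ on the gene's strand. Capitals mark matches to the NRF1 letters GCGCATGC, the ETS letters CCGGAAG or the cyclic AMP response element (CRE) letters TGACGTCA, on either strand. Only promoters that hold a match are shown. Those of NDUFB1 and ATP5F1E, which rose past the fold minimum with PB, hold no match to any of these letters. The promoter of ATP5MPL, the gene with the largest RA fall in complex V, holds none either. A link between a match and a response was not tested. SDHD (chr11:112086723-112086872, plus strand), the gene with the lowest RA fold change, holds 2 overlapping NRF1 matches, on opposite strands, and an ETS match. NDUFS6 (chr5:1801257-1801406, plus strand) and ATP5MC2 (chr12:53676084-53676233, minus strand) hold NRF1 matches. ATP5MC1 (chr17:48892637-48892786, plus strand), the subunit c gene that rose with PB, and NDUFA10 (chr2:240025343-240025492, minus strand) hold CRE matches. COX8A (chr11:63974470-63974619, plus strand) holds an ETS match.
SDHD: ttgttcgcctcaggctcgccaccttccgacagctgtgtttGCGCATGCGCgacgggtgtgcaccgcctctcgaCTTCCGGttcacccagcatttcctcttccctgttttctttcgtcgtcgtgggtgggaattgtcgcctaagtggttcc
NDUFS6: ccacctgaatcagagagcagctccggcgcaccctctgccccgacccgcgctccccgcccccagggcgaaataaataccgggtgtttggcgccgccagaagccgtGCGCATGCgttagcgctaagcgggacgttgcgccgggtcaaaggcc
ATP5MC2: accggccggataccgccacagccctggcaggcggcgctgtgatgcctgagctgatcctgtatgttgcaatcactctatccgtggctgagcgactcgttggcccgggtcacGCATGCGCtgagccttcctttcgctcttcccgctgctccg
ATP5MC1: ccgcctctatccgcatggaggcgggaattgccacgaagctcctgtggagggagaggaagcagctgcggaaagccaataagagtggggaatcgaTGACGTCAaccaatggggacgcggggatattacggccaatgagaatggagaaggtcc
NDUFA10: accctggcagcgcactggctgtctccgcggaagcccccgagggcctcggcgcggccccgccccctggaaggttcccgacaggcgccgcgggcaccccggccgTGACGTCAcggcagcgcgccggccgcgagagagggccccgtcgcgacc
COX8A: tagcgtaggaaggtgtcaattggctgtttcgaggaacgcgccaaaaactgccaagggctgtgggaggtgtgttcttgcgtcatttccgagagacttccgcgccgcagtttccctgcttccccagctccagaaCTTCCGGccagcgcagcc

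RefSeq promoters, from 250 bases before to 50 after the start, were at hand for 65 of the 80 subunit genes, COX6B2 and COX8C among them, which did not pass the filter. The NRF1 letters were present in 13 of the 65 (20%), and in 3.27% of all 27305 promoters. ETS letters occurred in 19 (29.2%) against 10.7%, the YY1 letters AAGATGGC in 11 (16.9%) against 3.03%, and the CRE letters in 5 (7.69%) against 1.98%. The E-box letters CACGTG, which MYC-family factors can bind, occurred in 7 (10.8%) against 7.43%. Both strands were searched for each motif and matches were counted whether or not they overlapped another motif. These are matches to letters and say nothing of whether a factor is bound. The CRE letters were in the promoters of ATP5MC1, ATP5ME, NDUFA10, NDUFB2 and SDHB, whose log2 fold changes with PB were 0.51, 0.21, 0.51, 0.15 and −0.13. ATP5MC1 and NDUFA10 passed the test with PB, and the other 3 did not, with adjusted p from edgeR of 0.0756, 0.162 and 0.215. With replicate number as a block, ATP5ME and SDHB passed as well (adjusted p = 0.0105 and 0.0456).

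All 4 genes of complex II fell with RA. SDHA (chromosome 5, 218418 to 257197, GRCh37) is the flavoprotein that oxidises succinate. Its levels were 269, 285, 272 and 262 CPM in DMSO and 220, 225, 205 and 203 CPM in RA. In PB it stood at 267, 274, 250 and 245 CPM, and in PB+RA at 214, 211, 189 and 185 CPM. The RA and PB+RA libraries were all below the DMSO and PB libraries. SDHA fell by 0.36 on the log2 scale with RA (SE 0.059, adjusted p = 0.000221) and by 0.48 with the combination (adjusted p = 2.23e-06), and PB gave −0.07 (adjusted p = 0.32). An unnamed same-strand model shares 21.7% of its exon bases.

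SDHD (chromosome 11, 111957548 to 111990739, GRCh37) is one of the membrane anchors of complex II, and the gene whose promoter above carries both motifs. Its levels were 68.1, 71.5, 71.2 and 73.1 CPM in DMSO, 51.0, 53.4, 50.6 and 52.3 in RA, 66.2, 67.5, 58.4 and 60.8 in PB, and 48.1, 52.1, 49.3 and 50.6 in PB+RA. No library with RA reached the lowest library without it. The log2 fold change was −0.46 with RA (SE 0.0493, adjusted p = 4.19e-06), −0.17 with PB (adjusted p = 0.00935) and −0.53 with the combination (SE 0.0494, adjusted p = 7.12e-08). Between PB+RA and PB it was −0.37 (adjusted p = 2.75e-05).

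SDHB, the iron-sulphur subunit, averaged 55.2 ± 1.03 CPM in DMSO and 41.6 ± 3.10 in RA (SD, n = 4), a fall of 0.42 on the log2 scale (adjusted p = 0.00126). SDHC, the other anchor, averaged 115.7 ± 1.02 CPM in DMSO and 106.6 ± 2.14 in RA and fell by 0.13 (adjusted p = 0.0413). With PB+RA the 4 genes of complex II all fell, with a median of −0.43, and with PB alone SDHD fell and the other 3 did not pass the test, though SDHB did with the block (adjusted p = 0.0456).

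In complex V, 15 of 17 genes were lower in RA. ATP5F1B encodes the catalytic beta subunit. It averaged 1508 ± 37.7 CPM in DMSO, 1257 ± 51.7 in RA, 1332 ± 36.9 in PB and 1135 ± 33.04 with both drugs. For ATP5F1B the log2 fold changes were −0.27 with RA (adjusted p = 0.000127), −0.18 with PB (adjusted p = 0.00185) and −0.44 with the combination (adjusted p = 1.02e-07). ATP5F1A, the alpha subunit, also fell with RA, at −0.24 (adjusted p = 0.00251), and rose with PB by 0.14 (adjusted p = 0.039), a call that was lost when GC content and length were corrected for.

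ATP5MPL (chromosome 14, 104378625 to 104394606, GRCh37), a small membrane subunit also named ATP5MJ, had the largest RA fall in complex V. Its levels were 100, 99.2, 109 and 99.0 CPM in DMSO, 78.3, 75.8, 69.1 and 75.8 in RA, 87.8, 89.9, 77.8 and 87.0 in PB, and 71.5, 76.9, 66.2 and 67.7 in PB+RA. All 12 treated libraries lay below the 4 DMSO libraries. The log2 fold change was −0.46 with RA (SE 0.0614, adjusted p = 3.85e-05) and −0.56 with the combination (adjusted p = 5.76e-07).

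In complex I, RA lowered 5 of the 7 nuclear-encoded core subunits, among them NDUFV1, the NADH-oxidising subunit, by 0.36 (adjusted p = 0.00798). The largest RA fall in the complex was that of NDUFC1, a small accessory subunit, which averaged 55.4 ± 5.83 CPM in DMSO and 40.8 ± 4.37 in RA (log2 fold change −0.45, adjusted p = 0.00256). NDUFC1 overlaps NAA15 on the opposite strand, a row with more counts, and how the strands were counted is not given in the sources used here. NDUFS6, a zinc-binding accessory subunit of the peripheral arm, gave −0.31 with RA (adjusted p = 0.0555), and passed the test when replicate number was included as a block (adjusted p = 0.000113).

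In complexes III and IV the RA falls were of the same order. UQCR10, an accessory subunit of complex III, fell by 0.41 (adjusted p = 0.00072), and UQCRFS1, the Rieske iron-sulphur protein, by 0.27 (adjusted p = 0.0103). UQCRC1, a large matrix-facing subunit of complex III, gave −0.22 (adjusted p = 0.188), and with the block it passed the test (adjusted p = 0.000885). UQCRH, the hinge protein, gave −0.19 (adjusted p = 0.0922) and also passed with the block (adjusted p = 0.00422). In complex IV, COX5A, COX5B, COX6A1, COX6B1, COX7C and COX8A fell, by 0.21 to 0.31 on the log2 scale.

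**Figure D3:**
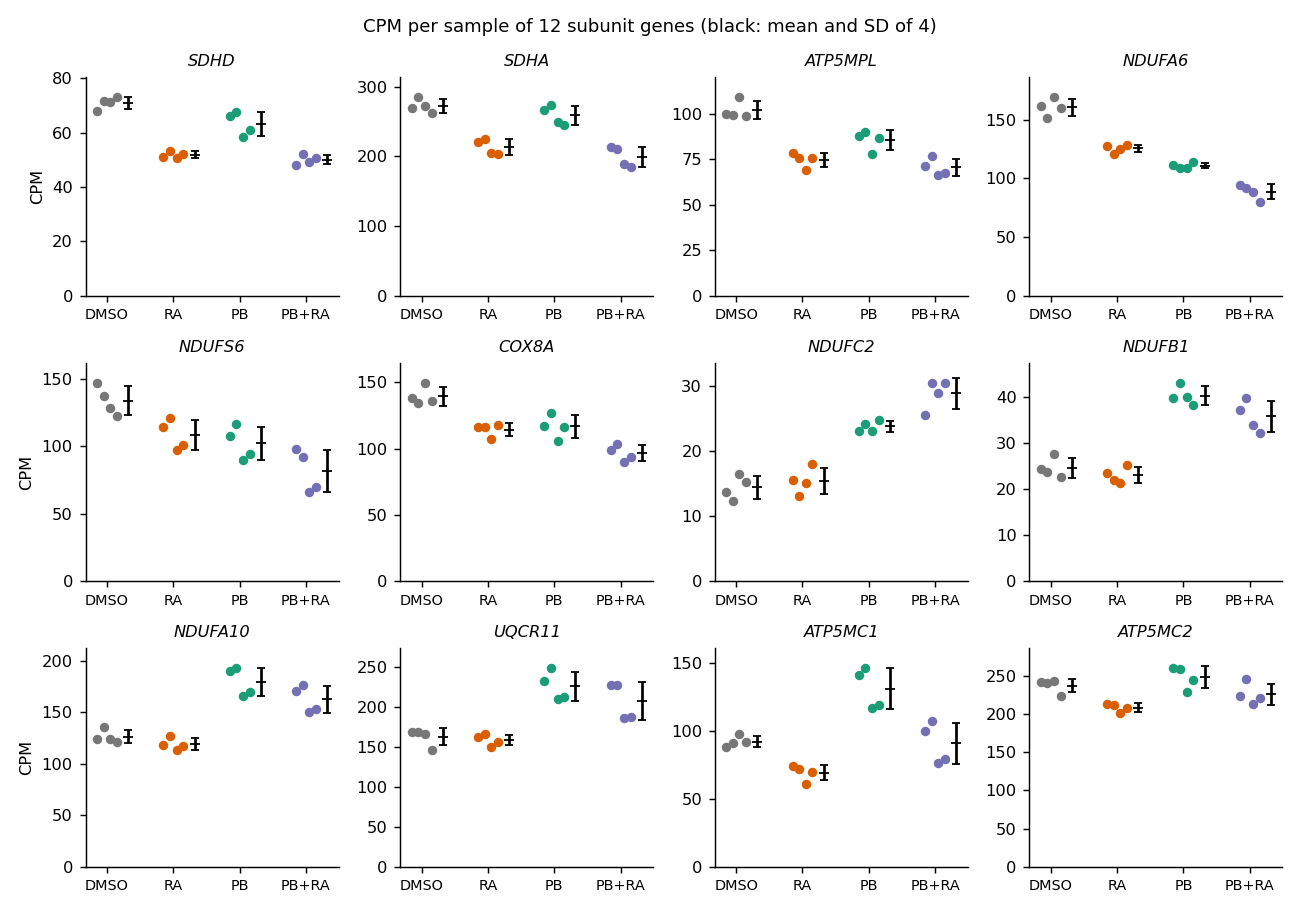
CPM in each library of 12 subunit genes by treatment group, with the mean and SD over 4 replicates. SDHD and NDUFA6 were lower in every RA and PB+RA library than in any DMSO library, whereas NDUFC2 and NDUFB1 were higher in every PB and PB+RA library.

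PB alone moved subunit genes in both directions, with a median near zero. Of 77 genes, 15 rose and 12 fell, against 28.4% and 25.2% of all genes, and the median was 0.01. Past the fold minimum, 5 rose and 1 fell, against 16.9% and 11.3% of all genes. In this fit, without a block, the shares of subunit genes that rose and fell were below those of all genes. In replicates 1 and 2 alone, 31.2% rose and 13.0% fell, against 25.1% and 23.0% of all genes. In replicates 3 and 4 alone, 14.3% rose and 45.5% fell, against 25.1% and 29.6%. When replicate number was included as a block, 25 genes rose. With the GC and length correction 19 fell, with that and the block 28, and in replicates 3 and 4 alone 35. Shares of all genes under the block or the correction are not given here. The correction also moved the PB median of all genes from 0.03 to −0.05, with or without the block. Without any one of DMSO replicates 1 and 4 and PB replicates 1 and 2, 3 rather than 5 genes rose past the fold minimum, and without any one of DMSO replicate 4 and PB replicates 2 and 3, 2 fell past it. The complexes had 7 genes higher and 7 lower (I), 0 and 1 (II), 2 and 0 (III), 3 and 1 (IV), and 3 and 3 (V).

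The genes that rose past the fold minimum were NDUFC2, NDUFB1, NDUFA10, ATP5MC1 and ATP5F1E. NDUFC2 (chromosome 11, 77779343 to 77790908, GRCh37) is an accessory subunit of the membrane arm of complex I. Its levels were 13.7, 12.4, 16.4 and 15.3 CPM in DMSO, 15.5, 13.1, 15.1 and 18.02 in RA, 23.1, 24.2, 23.1 and 24.8 in PB, and 25.5, 30.5, 29.0 and 30.4 in PB+RA. DMSO and RA overlapped, and every library with PB lay above both. The log2 fold change was 0.72 with PB (SE 0.0993, adjusted p = 1.31e-05) and 0.97 with the combination (SE 0.099, adjusted p = 2.31e-07). The read-through model NDUFC2-KCTD14 shares 18.6% of its exon bases.

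NDUFB1 (chromosome 14, 92582466 to 92588261, GRCh37), a small accessory subunit of complex I, had 24.5, 23.7, 27.6 and 22.6 CPM in DMSO, 23.6, 22.1, 21.4 and 25.2 in RA, 39.9, 43.2, 40.1 and 38.4 in PB, and 37.3, 39.9, 34.0 and 32.3 in PB+RA. DMSO and RA overlapped, and both PB groups lay above them. NDUFB1 rose by 0.71 with PB (SE 0.0813, adjusted p = 1.75e-06), and the combination raised it by 0.51 (adjusted p = 3.18e-05).

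ATP5F1E, the epsilon subunit of the ATP synthase central stalk, was counted at low levels of 4.82, 3.91, 4.49 and 5.26 CPM in DMSO and 4.67, 4.25, 4.22 and 5.09 in RA. PB libraries held 11.4, 9.63, 7.37 and 8.42 CPM and PB+RA libraries 8.23, 7.75, 7.39 and 7.48. All 8 libraries with PB exceeded the 8 without it. The rise was 0.99 with PB (SE 0.127, adjusted p = 6.2e-06) and 0.71 with the combination (adjusted p = 0.000116). A row for the read-through SLMO2-ATP5E averaged 0.00484 CPM.

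NDUFA10, an accessory subunit of complex I, had 124, 135, 124 and 121 CPM in DMSO, 119, 127, 113 and 117 in RA, 190, 193, 166 and 170 in PB, and 171, 176, 150 and 154 in PB+RA. The PB groups lay above the others. The log2 fold change with PB was 0.51 (SE 0.0656, adjusted p = 6.26e-06) and 0.30 when GC content and length were corrected for. With PB+RA it was 0.34 (adjusted p = 0.00023), and under that correction 0.05 (adjusted p = 0.59), so that the second call was lost. UQCR11, an accessory subunit of complex III, rose by 0.47 with PB (SE 0.0786, adjusted p = 8.7e-05), just inside the fold minimum, from 147 to 169 CPM in DMSO to 210 to 249 CPM in PB.

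Of the 3 subunit c genes, all fell with RA and ATP5MC1 alone passed the test with PB. ATP5MC1 (chromosome 17, 46970127 to 46973233, GRCh37) had 87.7, 91.0, 97.6 and 91.9 CPM in DMSO and 141, 146, 117 and 119 in PB. With RA it had 74.3, 72.1, 61.0 and 69.9 CPM, and in PB+RA 99.7, 107, 76.6 and 79.4. PB libraries were all above DMSO, RA libraries were all below it, and PB+RA spanned it. ATP5MC1 rose by 0.51 with PB (SE 0.104, adjusted p = 0.000631) and fell by 0.42 with RA (adjusted p = 0.00569), and PB+RA gave −0.05 (adjusted p = 0.704). ATP5MC2 gave 0.06 with PB (adjusted p = 0.312) and fell by 0.19 with RA (adjusted p = 0.00851). ATP5MC3 gave −0.07 with PB and fell by 0.25 with RA (adjusted p = 0.0186). Within the summed CPM of the 3 genes, ATP5MC1 took 18.4 ± 0.938% in DMSO, 24.1 ± 0.979% in PB, 16.4 ± 0.526% in RA and 19.8 ± 1.66% in PB+RA (SD, n = 4). These shares are not corrected for length and serve only to compare groups.

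The gene that fell past the fold minimum with PB was NDUFA6 (chromosome 22, 42481530 to 42486888, GRCh37), an accessory subunit of complex I. Its levels were 162, 151, 169 and 160 CPM in DMSO, 127, 121, 125 and 129 in RA, 111, 109, 109 and 114 in PB, and 94.6, 91.9, 88.0 and 80.1 in PB+RA. The 4 groups did not overlap, in that order. Log2 fold changes were −0.36 with RA (adjusted p = 7.41e-05), −0.53 with PB (SE 0.053, adjusted p = 3.84e-07) and −0.88 with the combination (SE 0.0533, adjusted p = 3.72e-10). The departure from additivity was 0.01 (adjusted p = 0.96). NDUFB6, another accessory subunit of complex I, fell by 0.48 with PB (adjusted p = 1.84e-05), just inside the fold minimum.

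With PB+RA against DMSO, 8 subunit genes rose and 40 fell, against 34.7% and 31.4% of all genes, and the median was −0.19. Past the fold minimum, 3 rose and 8 fell, against 24.0% and 17.9% of all genes. The 3 that rose were NDUFC2, NDUFB1 and ATP5F1E. The 8 that fell were NDUFA6, NDUFS6, NDUFB6, NDUFC1, NDUFB10, ATP5MPL, COX8A and SDHD. Without DMSO replicate 2 or without PB+RA replicate 2, 5 rather than 8 genes rose. Genes higher and lower numbered 5 and 19 in complex I, 0 and 4 in II, 1 and 5 in III, 1 and 4 in IV, and 1 and 8 in V.

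NDUFS6 (chromosome 5, 1801521 to 1816162, GRCh37) had 147, 137, 129 and 122 CPM in DMSO, 114, 121, 97.3 and 101 in RA, 108, 117, 90.2 and 94.4 in PB, and 98.3, 92.3, 66.3 and 70.3 in PB+RA. All treated libraries were below DMSO. NDUFS6 fell by 0.74 with PB+RA (SE 0.122, adjusted p = 5.99e-05) and by 0.39 with PB (adjusted p = 0.013). COX8A, a small accessory subunit of complex IV, had 138, 134, 150 and 136 CPM in DMSO, 116, 116, 107 and 118 in RA, 117, 127, 106 and 117 in PB, and 98.7, 104, 89.8 and 93.4 in PB+RA. Its PB+RA libraries were the lowest, below every library of the other 3 groups. COX8A fell by 0.56 with PB+RA (SE 0.0612, adjusted p = 5.03e-07), and the single drugs lowered it by 0.29 (RA, adjusted p = 0.00147) and 0.26 (PB, adjusted p = 0.00205). An unnamed same-strand model shares 35.4% of its exon bases.

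NDUFB10, an accessory subunit of complex I, went from 124.1 ± 3.999 CPM in DMSO to 85.2 ± 5.72 in PB+RA (−0.57, adjusted p = 9.62e-08), with 100.01 ± 3.68 in RA and 113.9 ± 4.24 in PB. NDUFB6 went from 36.5 ± 2.32 to 23.9 ± 1.09 CPM (−0.64, adjusted p = 3.65e-07) and NDUFC1 from 55.4 ± 5.83 to 36.3 ± 3.90 CPM (−0.64, adjusted p = 3.28e-05).

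What RA added in the presence of PB was asked by setting PB+RA against PB. Here 42 subunit genes fell and 0 rose, against 20.9% and 17.2% of all genes, and the median was −0.21 with 76 of 77 genes below zero. With replicate number as a block, 64 fell, but the share of all genes that fell with the block is not given here. Past the fold minimum, 1 fell and 0 rose, against 7.27% and 9.02% of all genes. The gene that fell was ATP5MC1, at −0.55 (adjusted p = 0.00061), and 0 genes did without PB replicate 2, PB+RA replicate 3 or PB+RA replicate 4. The complexes had 18, 3, 4, 3 and 14 genes lower, with medians of −0.20, −0.31, −0.24, −0.15 and −0.24. In 16 genes no PB+RA library overlapped PB on the lower side, against 15.2% of all genes. Leaving out 1 library moved the count of genes lower to between 17 and 56, the lowest being without PB+RA replicate 4. It was 21 without PB+RA replicate 3, 20 without PB replicate 2 and 21 without PB replicate 1.

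The comparisons of RA with DMSO and of PB+RA with PB share no library, although samples of the same replicate number may be related. Over the 77 genes their fold changes correlated at Pearson r = 0.610 and Spearman rho = 0.598, across genes, which are not independent replicates, and over all tested genes r was 0.748. In both comparisons 36 genes fell, or 66.7% of the 54 and 85.7% of the 42. A total of 75 genes were below zero in both.

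**Figure D4:**
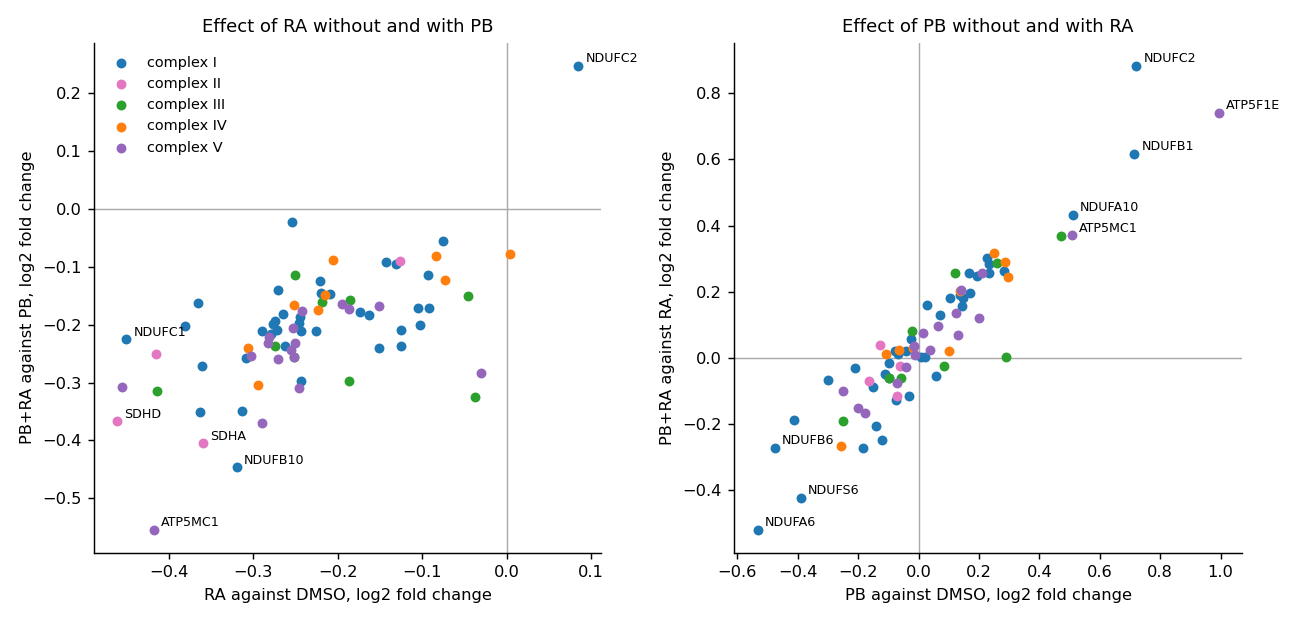
Log2 fold change of each subunit gene on adding RA without PB (RA against DMSO, horizontal) and with PB (PB+RA against PB, vertical), and in a second panel on adding PB without RA (PB against DMSO) and with RA (PB+RA against RA), coloured by complex. In the first panel 75 of 77 genes lay below zero on both axes, and in the second NDUFC2, ATP5F1E and NDUFB1 lay furthest above zero and NDUFA6 furthest below.

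What PB added in the presence of RA was asked by setting PB+RA against RA. Here 20 subunit genes rose and 8 fell, against 26.5% and 27.9% of all genes, with a median of 0.02. With the block, 13 fell, and without PB+RA replicate 2, 14 fell, with the shares of all genes in these fits not given here. Past the fold minimum, 3 rose and 1 fell, against 14.9% and 14.1% of all genes. These were NDUFC2 at 0.88 (adjusted p = 1.32e-06), ATP5F1E at 0.74 (adjusted p = 0.000127) and NDUFB1 at 0.62 (adjusted p = 8.43e-06), and NDUFA6 at −0.52 (adjusted p = 4.61e-07). Without PB+RA replicate 4 or RA replicate 4, 0 genes fell past the minimum, and without PB+RA replicate 1 or 2, 2 did. ATP5MC1 rose by 0.37 (adjusted p = 0.00695). PB against DMSO shares no library with this comparison. Over the 77 genes the r between them was 0.931 and rho 0.906, with r 0.814 over all tested genes. All 15 genes that rose with PB alone were among the 20, or 75.0% of these, and 7 fell in both, or 58.3% of the 12 and 87.5% of the 8.

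The interaction between the drugs, the departure of PB+RA from the sum of the single-drug log2 changes, passed the test for 0 of 77 subunit genes. Of all genes, 0.947% were above and 4.35% below the sum. At an unadjusted p below 0.05 there was 1 gene, NDUFS4, and DESeq2 called 1, also NDUFS4. Without DMSO replicate 4 or PB+RA replicate 4, 1 gene passed. NDUFS4, an accessory subunit of complex I, had 61.2, 59.4, 59.6 and 54.9 CPM in DMSO, 49.6, 50.9, 48.8 and 49.0 in RA, 48.9, 49.0, 45.8 and 47.3 in PB, and 46.8, 51.0, 47.2 and 46.7 in PB+RA. The treated groups overlapped one another below DMSO. NDUFS4 fell by 0.25 with RA (adjusted p = 0.000809), 0.30 with PB (adjusted p = 7.28e-05) and 0.32 with both drugs (adjusted p = 2.06e-05). Its interaction was 0.23 (adjusted p = 0.0639), and adjusted p = 0.0179 with the replicate block. For the other genes an adjusted p above the threshold does not show that the drugs acted additively.

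The third principal component of all tested genes, with 10.8% of the variance, parted replicates 1 and 2 from replicates 3 and 4 over all libraries. Component 2, with 23.0% of the variance, parted these sets within every group, though not over all libraries. The labels give no batch for the sets. More genes fell in replicates 3 and 4, among the subunit genes and among all genes. With RA, 40 subunit genes fell in replicates 1 and 2 alone (median −0.19) and 70 in replicates 3 and 4 alone (median −0.34), with 0 higher in either set. Of all genes, 10.5% fell with RA in the first set and 25.5% in the second. With PB the direction of the middle differed between the sets. In replicates 1 and 2, 24 rose and 10 fell (median 0.06), and in replicates 3 and 4, 11 rose and 35 fell (median −0.11). Of all genes, 25.1% rose with PB in each set, while 23.0% fell in the first and 29.6% in the second. With PB+RA against DMSO, 12 rose and 32 fell in the first set (median −0.10), and 5 rose and 62 fell in the second (median −0.35), against 29.4% and 34.1% of all genes falling. For PB+RA against PB the medians were −0.16 and −0.23, with 26 and 63 genes lower, against 15.6% and 23.2% of all genes. For PB+RA against RA the medians were 0.08 and −0.01. The difference between the sets was not tested.

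**Figure D5:**
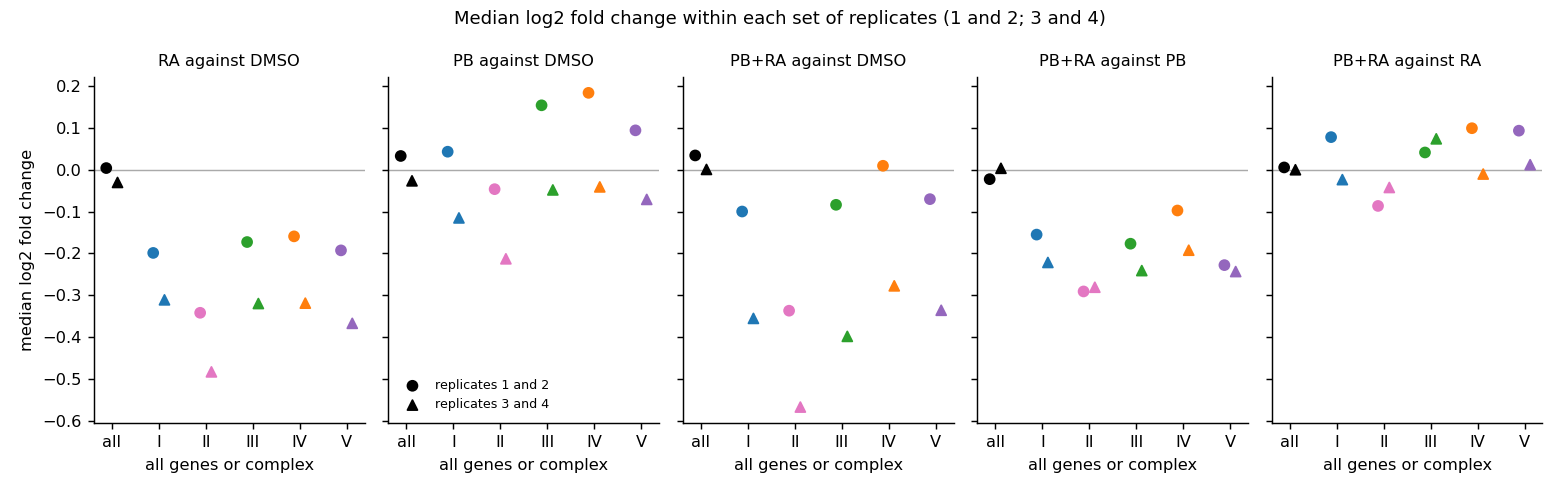
Median log2 fold change of the subunit genes of each complex, and of every gene tested (all), in replicates 1 and 2 alone and in replicates 3 and 4 alone, for each comparison. The RA medians of all 5 complexes were below zero in both sets and lower in replicates 3 and 4 (complex II −0.34 and −0.48).

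Genes of related function were counted in the same way. Of 7 further genes of subunits, their isoforms or associated proteins whose symbols fell outside the choice, RA lowered 3, among them CYC1, the cytochrome c1 of complex III, with 144.9 ± 13.1 CPM in DMSO, 100.6 ± 8.13 in RA and 93.2 ± 15.2 in PB+RA (log2 fold change with RA −0.53, adjusted p = 0.00132). Of the assembly factors, RA lowered 11 of 19 for complex I, 6 of 10 for complexes II and III, 8 of 23 for complex IV and 2 of 5 for complex V, and raised none of them at the threshold, against the 16.4% of all genes that fell and 18.8% that rose. PB moved these in both directions, raising 5, 4, 5 and 1 and lowering 4, 2, 9 and 1. In the same order, the shares raised were 26.3%, 40%, 21.7% and 20%, against 28.4% of all genes. The shares lowered were 21.1%, 20%, 39.1% and 20%, against 25.2%. The complex I assembly factor TMEM126A averaged 26.0 ± 2.17 CPM in DMSO, 19.5 ± 1.86 in RA, 15.9 ± 1.40 in PB and 14.3 ± 1.39 with both drugs. UQCC3, which assembles complex III, fell by 0.96 with PB+RA (adjusted p = 7.42e-07).

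Of 24 genes that maintain or express mitochondrial DNA, 8 fell with RA, 5 fell and 9 rose with PB, and 16 fell in PB+RA against PB. These are 33.3% with RA, 20.8% and 37.5% with PB, and 66.7% in PB+RA against PB, beside 16.4%, 25.2%, 28.4% and 20.9% of all genes. TFAM, the factor that packages and transcribes mitochondrial DNA, averaged 81.3 ± 3.50 CPM in DMSO, 66.0 ± 3.42 in RA, 52.7 ± 2.90 in PB and 41.9 ± 3.87 with both drugs. It fell in each treatment, by 0.31 with RA (adjusted p = 0.00147), 0.62 with PB (adjusted p = 5.91e-07) and 0.99 with the combination (adjusted p = 1.09e-09). Of 15 regulators of mitochondrial biogenesis, RA raised 2 (13.3%, against 18.8% of all genes) and lowered 1 (6.67%, against 16.4%), with 10 below zero. PB raised 2 (13.3%, against 28.4%) and lowered 5 (33.3%, against 25.2%). PB+RA raised 2 (13.3%, against 34.7%) and lowered 7 (46.7%, against 31.4%). In PB+RA against RA, 2 rose (13.3%, against 26.5%) and 8 fell (53.3%, against 27.9%). The 2 that rose with RA were the nuclear receptors PPARG and PPARD. PPARG averaged 12.3 ± 3.07 CPM in DMSO and 34.1 ± 6.67 in RA (log2 fold change 1.46, adjusted p = 2.01e-05). PPARD averaged 72.1 ± 3.44 and 116.9 ± 2.77 CPM (0.69, adjusted p = 1.25e-07).

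The TCA cycle, which supplies NADH and shares complex II, had 14 of 18 genes lower with RA and 0 higher, 5 higher and 6 lower with PB, and 14 lower in PB+RA against PB. The share lower was 77.8% in both RA comparisons, against 16.4% and 20.9% of all genes, whereas with PB 27.8% were higher and 33.3% lower, against 28.4% and 25.2%. The SDH genes were counted with the subunit genes and are not among these. Fumarase (FH) averaged 112.2 ± 5.19 CPM in DMSO, 89.8 ± 4.63 in RA, 72.4 ± 2.98 in PB and 55.7 ± 1.98 with both drugs. IDH2, the mitochondrial NADP-dependent isocitrate dehydrogenase, averaged 289 ± 8.67 CPM in DMSO, 294 ± 10.2 in RA, 159.1 ± 15.4 in PB and 117.6 ± 12.03 with both drugs. FH fell with RA by 0.33 (adjusted p = 0.000142) and with PB by 0.63 (adjusted p = 4.96e-08), whereas IDH2 gave 0.02 with RA (adjusted p = 0.888) and fell by 0.86 with PB (adjusted p = 6.03e-08).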

How the data were processed

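Per the labels and the study's methods, RNA was polyA-selected, made into directional libraries and sequenced paired-end. The authors trimmed reads with Trim Galore 0.6.4, aligned them to hg19 with STAR 2.6.1d (version from the submitters' processing notes) and counted them per gene. The annotation release and strand column are not given in the sources used here. The deposited raw counts are whole numbers per gene for 16 samples, and the deposited CPM values equal these counts per 1000000 of each column's total. Another deposited table holds the authors' own DESeq2 1.32.0 comparisons (fold changes and p-values) and was not used.

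Counts were analysed with edgeR 4.0.16 in R 4.3.3, using TMM factors (0.983 to 1.02), filterByExpr, and a quasi-likelihood fit with 1 coefficient per group over all 16 samples. Adjusted p-values are Benjamini-Hochberg over 15415 genes. CPM printed here are per 1000000 of all counts, without TMM. The script was tested on simulated data. Alternatives were a replicate block, GC content and length as spline offsets (known for 96.3% of tested genes), other scalings and filters, DESeq2 1.42.0, limma-voom (limma 3.58.1), sets of samples and leaving out each sample. The sources used here do not say what a replicate number shares across groups. Deviations of same-numbered samples from the group means correlated in all 24 pairs (0.330 to 0.573). Differently numbered samples were not compared in this way. The correlations therefore cannot tell pairing by number from the parting of the replicate sets described above. The main fit used no block, and the block was run as an alternative. Gene positions are from GENCODE v44 lifted to GRCh37, which may not be the annotation the authors used, and 2 symbols were matched through a synonym. Promoters are from RefSeq on GRCh38.p14.

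The genes named were those past the fold minimum in a comparison (up to 8 in each direction), a fixed set of central subunits and isoform genes, where fewer than 5 passed the largest changes with a mean of at least 10 CPM, and the 2 genes of each related list with the largest change in PB+RA. Others named for a single fact, such as the promoters, were chosen after their values were seen. The subunit genes and the related lists were chosen with earlier results of these data known. Values of 1 core subunit are not reported here.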

Additional observations from a re-analysis of the deposited data

Results flagged for a closer look

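A library was looked for that stood apart in its group of 4 by its gap to the nearest other library as a share of the group's range (Dixon's criterion at 95%). Of 332 groups of values examined, 13 met it, and chance gives about 1 in 20. In DMSO, ATP5F1A was at 476 CPM in replicate 2 (others 436 to 441.7), ATP5MC2 at 223.8 CPM in replicate 4 (240 to 242.3) and UQCR11 at 147 CPM in replicate 4 (166.9 to 169.4). DMSO replicate 3 was apart for ATP5MPL at 109.3 CPM (99.01 to 100.1), COX7A2 at 166.9 CPM (148 to 150.6) and NDUFB11 at 135.2 CPM (120.3 to 122.1). The subunit genes' share of counts was 1.19% in DMSO replicate 4 and 1.253% to 1.262% in the other 3.

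With PB, ATP5MF was at 43.49 CPM in replicate 2 (38.31 to 38.88). Within the RA group, ATP5PO was at 184.4 CPM in replicate 3 (199.2 to 201.5) and UQCRHL at 6.914 CPM in replicate 2 (4.71 to 5). In PB+RA, COX6B1 was at 235.4 CPM in replicate 2 (193.5 to 196.6), NDUFS4 at 51.01 CPM in replicate 2 (46.73 to 47.24) and NDUFA7 at 65.44 CPM in replicate 1 (56.16 to 57.08).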

How the results depend on the processing

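Of 196 calls of a reported subunit gene in a comparison, 138 were made under every alternative that used all 16 samples. The count of genes lower with RA (54) stayed within 1.5 times under every alternative run. Correcting for GC content and length moved the median of all genes in RA against DMSO to −0.11 and that of the subunit genes to −0.33. No mitochondrially encoded row was at hand, so the planned test of their share and the fit without them were not run. A change under an alternative was not traced, and the cause was not tested. Counts under the alternatives below are given without the share of all genes called under the same alternative. ATP5F1E (mean 6.52 CPM) and UQCRHL (mean 5.74 CPM) were the 2 tested subunit genes under 10 CPM and rest on the fewest counts.

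With the replicate block, PB raised 25 genes, PB+RA against PB lowered 64 and raised 1, PB+RA against RA lowered 13, and 1 gene was above additive, while no other call of a summary count changed by more than 1.5 times. With the block and the GC and length correction, PB lowered 28, and 3 rose past the fold minimum. RA lowered 8 past it (median −0.33), PB+RA 14, PB+RA against PB lowered 66 and raised 1, PB+RA against RA raised 33, lowered 14 and 0 past the fold minimum, and 10 were above additive. The correction alone gave 19 lower and 3 higher past the minimum with PB, 8 lower past it with RA, 14 with PB+RA and 0 for PB+RA against RA, with 1 higher for PB+RA against PB and 1 above additive. With the correction the interaction median of all genes also moved, from −0.04 to 0.05, with or without the block.

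In replicates 1 and 2 alone, PB raised 24, the medians with RA and PB+RA were −0.19 and −0.10, PB+RA against PB lowered 26 and 0 past the minimum, and PB+RA against RA lowered 0 past it. In replicates 3 and 4 alone, PB lowered 35, with 3 higher and 2 lower past the minimum and a median of −0.11. RA lowered 5 past it (median −0.34), PB+RA raised 5, lowered 62 and 15 past it (median −0.35), PB+RA against PB raised 1, PB+RA against RA lowered 15 and 2 past it, and 3 were above additive. Under DESeq2, RLE factors, no filter or the 2 groups alone, 3 rose past the minimum with PB, and 2 fell past it without a filter. PB+RA against PB raised 1 gene under DESeq2, voom, the 2 groups alone, the stricter filter or total counts, and lowered 19 with the 2 groups alone and 24 under the stricter filter. That filter gave 5 lower past the minimum for PB+RA and 0 for PB+RA against RA. DESeq2, RLE factors, the stricter filter and total counts each put 1 gene above additive.

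The sign turned for ATP5PD with PB (−0.20 in replicates 3 and 4), for ATP5MC1 with PB+RA (0.18 in replicates 1 and 2) and for ATP5ME, COX7B and UQCRB with PB+RA (−0.22, −0.11 and −0.14 in replicates 3 and 4). NDUFV3 with PB+RA turned to −0.12 under the replicate block with the GC and length correction.

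Leaving out 1 library gave, for PB, 13 to 14 genes higher, 12 to 17 lower, 3 to 5 and 1 to 2 past the minimum, and medians of −0.078 to 0.020. For RA it gave 46 to 53 lower, 0 to 1 past the minimum and medians of −0.28 to −0.24. For PB+RA it gave 5 to 9 higher, 35 to 47 lower, 2 to 3 and 8 to 12 past the minimum and medians of −0.27 to −0.16. PB+RA against PB had 0 to 1 higher, 17 to 56 lower, 0 to 1 lower past the minimum and medians of −0.25 to −0.15. PB+RA against RA had 15 to 26 higher, 8 to 14 lower, 0 to 2 lower past the minimum and medians of −0.03 to 0.09, and 0 to 1 gene was above additive.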
